A study of Mus musculus with 18 samples.

Results

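Left ventricles of 18 mice were sorted by how much Myl7 transcript their RNA libraries held. Myl7 encodes the atrial form of the myosin regulatory light chain. A library was called high when Myl7 reached 20 or more CPM (CPM, the count scaled to a library total of 1000000) and low when it stayed under 10. There were 9 high and 9 low libraries, and 0 libraries lay between the limits. The libraries were chosen by their measured Myl7 level, so that level, and every difference between high and low, are given as a description.

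The libraries came from wild-type (WT) mice and from littermates with cardiac-specific overexpression of Gαq, the G protein alpha subunit encoded by Gnaq. All were male FVB/N mice. From 4 to 20 weeks of age, for 16 weeks, their chow held 0.5 mg/g ertugliflozin (ERTU), an inhibitor of the kidney glucose transporter SGLT2, or no drug (control diet, CD). There were 5 libraries each of WT ERTU and Gαq CD and 4 each of WT CD and Gαq ERTU, every library from the frozen, powdered left ventricle of 1 heart. The promoter that drives the transgene is not given in the sources used here. Libraries are named by their group and the number in the count table. Those numbers run across the series and are not the numbers of the sample labels. Total counts ran from 15383566 to 20908363 in high libraries and from 16075634 to 20673048 in low libraries.

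Working atrial and ventricular muscle of the adult mouse use different myosin light chains. Atrial myocytes make Myl7 and the essential light chain Myl4, where ventricular myocytes make Myl2 and Myl3. Atrial myocytes also make sarcolipin (Sln), a small membrane peptide that inhibits the calcium pump of the sarcoplasmic reticulum, and Mybphl, a myosin-binding protein of the sarcomere. The natriuretic peptide gene Nppa is active in atria and is also switched on in stressed ventricles. The atria adjoin the ventricles at the valve ring, where fibrous and cartilage-like tissue, fat, nerves and a covering mesothelium lie close together.

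The 4 transcripts that mark atrial muscle most strongly lie apart in the genome (GENCODE M21, build GRCm38). Myl7 (ENSMUSG00000020469) spans chr11:5896637-5898782 on the minus strand and Myl4 (ENSMUSG00000061086) chr11:104550663-104595753 on the plus strand. Sln (ENSMUSG00000042045) spans chr9:53850164-53854560 and Mybphl (ENSMUSG00000068745) chr3:108364911-108380057, both on the plus strand. The sequences just before the RefSeq start sites of Myl7 and Mybphl are shown because these genes moved together. Sequences are from RefSeq (GRCm38.p6), 5′ to 3′ on the gene's strand.

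Myl7, chr11:5898783-5899032, minus strand, with the CArG box (the site of serum response factor, with an A/T core) in capitals: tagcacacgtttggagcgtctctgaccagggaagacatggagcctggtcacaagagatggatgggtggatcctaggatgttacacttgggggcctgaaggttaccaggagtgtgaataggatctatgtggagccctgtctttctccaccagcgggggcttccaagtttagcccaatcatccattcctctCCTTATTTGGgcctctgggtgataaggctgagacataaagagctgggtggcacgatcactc

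Mybphl, chr3:108364661-108364910, plus strand, with a GATA factor motif in capitals: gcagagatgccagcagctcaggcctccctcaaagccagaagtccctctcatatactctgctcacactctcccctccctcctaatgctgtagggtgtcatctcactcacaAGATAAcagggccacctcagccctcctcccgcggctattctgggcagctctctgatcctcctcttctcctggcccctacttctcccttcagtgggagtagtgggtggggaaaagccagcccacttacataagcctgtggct

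Windows of this length were searched on both strands. The CArG box with an A/T core was present in 1.47% of 32851 promoters, with 1 match in Myl7 and none in Mybphl or Myl4. The GATA motif AGATAA was present in 9.99% of promoters, with 1 match in Mybphl and none in the other two. Only this exact form was searched. The Myl7 window holds tgataa, which differs from it in 1 letter, so no difference in GATA sites can be read from this search. The T-box motif AGGTGT (11.8% of promoters) had no match in any of the 3 windows. These matches describe letters in a window and do not show that a factor binds there.

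High libraries occurred in every group. They were 2 of 4 in WT CD (libraries 1 and 5), 2 of 5 in WT ERTU (13 and 14), 2 of 5 in Gαq CD (8 and 9) and 3 of 4 in Gαq ERTU (16, 17 and 20). The comparison of high with low in Gαq ERTU therefore rested on 1 low library, number 18. Myl7 ran from 22.4 to 145 CPM with a median of 32.5 in high libraries (399 to 3024 counts). In low libraries it ran from 0 to 5.89 CPM with a median of 0.554 (0 to 102 counts). The low values were graded, and 2 libraries, Gαq CD 6 and WT ERTU 12, had no Myl7 count, which allows a level of up to 0.178 and 0.159 CPM. Just inside the limit stood WT CD 1, at 22.4 CPM, and just outside it Gαq ERTU 18, at 5.89 CPM.

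The ventricular light chains served to check the tissue label. Myl2 ran from 5281 to 9434 CPM in high libraries and from 5938 to 9281 CPM in low ones, and the ranges overlapped. Per kilobase of the principal transcript, Myl7 was 0.474 to 2.39% of Myl2 in high libraries (median 0.767%) and 0 to 0.102% in low ones. On the same scale Myl4 was 0.716 to 13.2% of Myl3 in high libraries (median 2.28%) and 0.0292 to 0.4004% in low ones. Ventricular light chains were thus abundant in both classes, and atrial light chains were a minor share in all 18 libraries. In bulk tissue, more cells of a type and more RNA per cell cannot be told apart.

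The other atrial sarcomere and calcium-handling transcripts separated the classes completely. Sln ran from 6.28 to 148 CPM in high libraries (median 27.2) and from 0.0517 to 3.35 CPM in low ones (median 0.292). Myl4 ran from 33.5 to 442 CPM (median 101) against 1.52 to 15.4 CPM (median 4.21). Mybphl ran from 2.19 to 45.2 CPM (median 9.22) against 0.0531 to 1.596 CPM (median 0.356). No high library overlapped a low one for any of the 3 genes, and for each of them Gαq CD 8 was the highest of all.

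**Figure D1:**
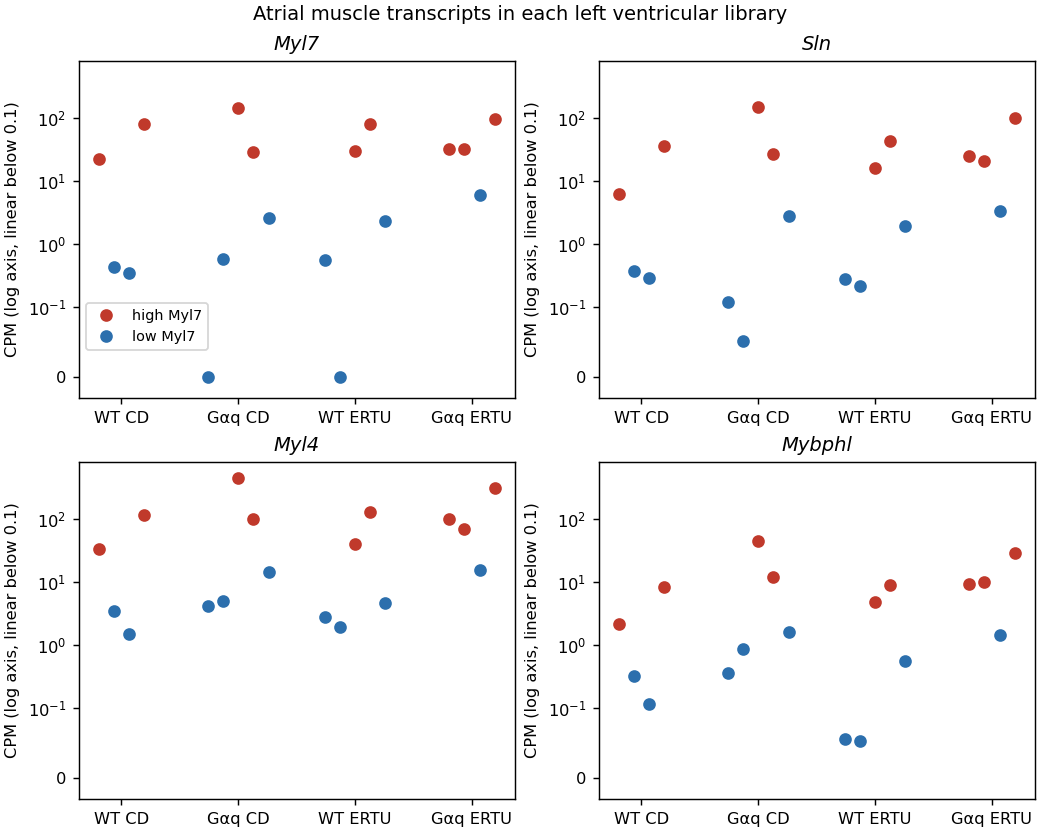
CPM of Myl7, Sln, Myl4 and Mybphl in each of 18 libraries by group, on a log axis that is linear below 0.1, with 1 point per library in red (high Myl7) or blue (low Myl7). The red points stand above the blue ones in every panel, which for Myl7 follows from how the classes were made, and Gαq CD 8 is the highest point.

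With the 4 groups as covariate, the fitted log2 difference between high and low libraries was 5.37 ± 0.61 (SE) for Sln, 4.55 ± 0.44 for Myl4 and 4.49 ± 0.43 for Mybphl. Differences of mean log2 CPM within a group ran from 3.46 (Gαq ERTU) to 7.03 (Gαq CD) for Sln. They ran from 3.09 to 4.94 for Myl4 and from 3.19 to 4.65 for Mybphl, again lowest in Gαq ERTU and highest in Gαq CD. Over all genes the median fitted difference was -0.0082.

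Other genes with atrial enrichment did not separate the classes. Dkk3, a secreted glycoprotein of the Dickkopf family, came closest, with 8.76 to 213 CPM in high libraries and 3.33 to 57.3 CPM in low ones (log2 difference 2.40 ± 0.46). In 3 high libraries, WT ERTU 13 (8.76 CPM), WT CD 1 (26.2 CPM) and Gαq CD 9 (40.9 CPM), its level lay within the low range. The heart kinase genes Sbk3 (0.96 ± 0.35) and Sbk2 (0.51 ± 0.21) and the lipid-transfer protein Stard10 (0.49 ± 0.18) were higher by less. The connexin gene Gja5 had a difference of 0.34 ± 0.17.

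Nppa did not follow Myl7. It ran from 172 to 711 CPM over all WT libraries and from 11359 to 21003 CPM over all Gαq libraries, with a difference of 0.16 ± 0.23 between high and low. In Gαq CD 6, which had no Myl7 count, Nppa was 18408 CPM. The atrial ion channel genes Kcnj3 (0.09 ± 0.12), Kcnj5 (-0.09 ± 0.10) and Kcna5 (-0.10 ± 0.15) and the muscarinic receptor gene Chrm2 (-0.15 ± 0.11) had differences near 0. So had the transcription factor genes Nr2f1 (0.09 ± 0.15), Nr2f2 (0.12 ± 0.10) and Tbx5 (0.13 ± 0.11), the calcium channel gene Cacna1d (0.05 ± 0.15) and the peptide-amidating enzyme gene Pam (0.13 ± 0.08). The calcium channel subunit gene Cacna2d2 had a difference of 0.40 ± 0.32. Bmp10, an atrial growth factor, stayed at or under 0.379 CPM in every library and was too low to test. Over the 20 tested genes of the atrial list other than Myl7, 17 had a difference above 0 and the median was 0.25.

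Over all 16269 genes tested other than Myl7, 10 were called higher in high libraries at an adjusted p under 0.05 (0.0615% of those tested) and 0 were called lower (0.00%). Since Myl7 chose the libraries, these counts only describe the contrast. The list held Sln, Myl4 and Mybphl and 7 genes that were on no list. A difference above 1 on the log2 scale was seen for 137 genes (0.842%) and one below -1 for 5 genes (0.0307%). Every high library lay above every low one for 4 genes (0.0246%), the 3 atrial genes and the predicted gene Gm2693, whose levels were under 1 CPM throughout. No gene had every high library below every low one (0.00%).

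Among the 7 genes on no list, Tmem163, a zinc-transporting membrane protein, ran from 0.52 to 9.37 CPM in high libraries and from 0.117 to 1.21 CPM in low ones (2.23 ± 0.33). All 5 Gαq high libraries, at 3.10 to 9.37 CPM, exceeded the 4 WT high libraries, at 0.52 to 1.03 CPM. Ppp1r1b, an inhibitor of protein phosphatase 1 also known as DARPP-32, had a difference of 2.05 ± 0.33. It ran from 0.731 to 2.73 CPM in high libraries and from 0.178 to 0.887 CPM in low ones. Sphkap, an anchoring protein for protein kinase A, had a difference of 3.56 ± 0.61 at low levels. It ran from 0.218 to 3.20 CPM against 0 to 0.296 CPM. In WT CD 1 (0.224 CPM) and WT ERTU 13 (0.218 CPM) it lay within the low range. The membrane protein gene Tmem119 had a difference of 0.86 ± 0.16.

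Epyc and Cilp2, both of which encode extracellular matrix proteins of cartilage, were also called. Epyc ran from 0.218 to 14.9 CPM in high libraries and from 0 to 2.14 CPM in low ones (3.60 ± 0.61). Cilp2 ran from 0.653 to 4.93 CPM against 0.054 to 1.50 CPM (2.77 ± 0.49). For both genes Gαq ERTU 18, the low library with the most Myl7, was the highest of the low class.

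The call count depended on single libraries. It fell to 4 without WT CD 2, without Gαq CD 8 or without WT ERTU 14, to 5 without WT CD 4, and to 6 without WT CD 5, Gαq CD 6, 7 or 10. It rose to 21 without Gαq CD 9, to 22 without WT ERTU 13 and to 31 without Gαq ERTU 18. Sln, Myl4, Mybphl and Tmem163 were called whichever of the 18 libraries was left out.

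When the level of Myl7 replaced the class, with log2 Myl7 CPM as a continuous term over the 18 libraries, 206 genes were called higher with Myl7 (1.27%) and 2 lower (0.0123%). All 10 genes called by class were among them. These calls use the Myl7 value that chose the libraries, so here and in the lists below they describe which genes went with Myl7 and support nothing further. Sln changed by 1.01 ± 0.04 (SE) log2 units per log2 unit of Myl7, Mybphl by 0.78 ± 0.03, Myl4 by 0.72 ± 0.04 and Dkk3 by 0.39 ± 0.05. The lower genes were the histone deacetylase gene Hdac9 (-0.06 ± 0.01) and the predicted gene Gm3235 (-0.14 ± 0.03).

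Within each class, log2 levels were also set against log2 Myl7 for 6 genes, 12 relations in all, chosen after their values were seen. Since Myl7 chose the libraries, these correlations are a description with no test. The points share libraries and pool the groups of a class. In the 9 high libraries Pearson's r was 0.909 for Sln and 0.886 for Myl4, with Spearman's rho of 0.883 for both. Without Gαq CD 8 and Gαq ERTU 20, the 2 libraries farthest from the median Myl7, r was 0.785 and 0.723. For Mybphl r was 0.769 and rho 0.617, and r was 0.412 without those 2 libraries, so the value rested on them.

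The 9 low libraries had at most 5.89 CPM of Myl7. There r was 0.840 for Sln, 0.741 for Myl4 and 0.711 for Mybphl, with rho of 0.695, 0.812 and 0.787. Without Gαq ERTU 18 and Gαq CD 6, the 2 farthest, r was 0.743, 0.773 and 0.754. For the fat gene Adipoq r was 0.736 in high and 0.835 in low libraries, with rho of 0.817 and 0.711, and r was 0.693 and 0.662 without the 2 farthest. For the mesothelial gene Msln r was 0.671 and 0.706, with rho of 0.80 in both, and r was 0.395 and 0.470 without the 2 farthest. For the cartilage gene Chad r was 0.629 and 0.484, with rho of 0.667 and 0.368, and r was 0.552 and 0.338 without the 2 farthest.

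Markers of tissues that adjoin the atria were then taken by list, each gene with its log2 difference between high and low libraries. By class 47.3% of all genes tested had a difference above 0. No gene of these neighbouring-tissue lists was called by class, and by Myl7 level 1.27% of all genes were called higher.

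White fat markers were higher in high libraries for 8 of 9 tested genes, with a median of 1.50, and 5 of the 9 were called by Myl7 level. The complement protease gene Cfd ran from 3.29 to 57.1 CPM in high libraries and from 0.362 to 6.30 CPM in low ones (2.17 ± 0.53). Carbonic anhydrase 3 (Car3) had a difference of 1.73 ± 0.41, the adipokine gene Adipoq 1.65 ± 0.42, the lipid droplet genes Cidec 1.62 ± 0.45 and Plin1 1.50 ± 0.35. The fatty acid-binding protein gene Fabp4, which endothelium also makes, had a difference of 0.14 ± 0.21, and the lipase gene Lipe one of -0.08 ± 0.26. The brown fat gene Ucp1 stayed at or under 0.609 CPM, and of the 2 brown fat genes tested neither was called by class or level.

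Mesothelial markers made up the second group. Of 10 tested genes of the epicardium and mesothelium list, 8 had a difference above 0, the median was 1.41, and 5 were called by Myl7 level. Msln, the surface protein mesothelin, ran from 0.056 to 12.2 CPM in high libraries and from 0 to 1.27 CPM in low ones (2.73 ± 0.67). The uroplakin genes Upk1b (3.44 ± 0.71) and Upk3b (2.39 ± 0.73), the mucin gene Muc16 (3.36 ± 0.74) and the keratin gene Krt19 (1.53 ± 0.43) were the others called by level. In WT CD 1, WT CD 5, WT ERTU 13 and Gαq CD 9, Upk1b was 0 to 0.585 CPM and Muc16 0 to 0.244 CPM. In WT ERTU 14 and Gαq ERTU 16, 17 and 20 they were 0.974 to 1.94 and 0.728 to 2.03 CPM. Both were highest in Gαq CD 8. Upk3b was 0.056 CPM in WT CD 1 and 1.40 CPM in the low library WT CD 2. Wt1 (-0.03 ± 0.14) and Tbx18 (-0.0057 ± 0.095), transcription factors of the epicardium, had differences near 0.

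Cartilage-like matrix genes formed the third. Chad, which encodes chondroadherin, ran from 0.427 to 24.0 CPM in high libraries (median 7.85) and from 0 to 4.22 CPM in low ones (median 0.319), with a difference of 3.57 ± 0.74. Comp, the cartilage oligomeric matrix protein, had a difference of 1.99 ± 0.43. They were the 2 genes called by Myl7 level of 5 tested on the cartilage and valve list, whose median was 0.76. The classes overlapped for Chad, since Gαq CD 9 (0.427 CPM), WT ERTU 13 (0.435 CPM) and WT CD 1 (2.97 CPM) lay in the low range.

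Among nerve and glia genes, the Schwann cell genes Sox10 (1.06 ± 0.22) and S100b (0.88 ± 0.28) were among the 3 of 5 tested that were called by level (list median 0.88). The neuronal genes Th and Snap25 had a median of 0 CPM in both classes, but other neuronal genes were detected. Dbh ran from 3.30 to 9.04 CPM in high libraries and from 2.05 to 9.35 CPM in low ones. Median levels in high and low libraries were 0.325 and 0.289 CPM for Prph and 0.160 and 0.0622 CPM for Tubb3. Of the conduction system list, Shox2, a factor of the sinus node, was called by level (class difference 1.50 ± 0.44), while the pacemaker channel gene Hcn4 was not (-0.07 ± 0.16). Of the endocardial list, Cytl1 (1.29 ± 0.34) and Hapln1 (2.33 ± 0.69) were called by level, 2 of 5. Of the 5, 4 had a difference above 0 and the median was 0.24, with 0.24 ± 0.24 for Plvap, 0.10 ± 0.18 for Tmem108 and -0.04 ± 0.23 for the natriuretic peptide receptor gene Npr3.

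Fibroblast genes had small differences in 1 direction. All 9 tested had a difference above 0, with a median of 0.46, and Dpt (0.63 ± 0.18), Postn (0.71 ± 0.22) and Tcf21 (0.46 ± 0.15) were called by level. Of 8 smooth muscle and large vessel genes, 6 had a difference above 0, the median was 0.35, and none was called by class or level. They ran from the contractile genes Cnn1 (1.31 ± 0.40) and Tagln (0.92 ± 0.27) to Smtn (-0.03 ± 0.12) and Myocd (-0.17 ± 0.12). The part of these tissues in the differences of other genes was not tested.

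**Figure D2:**
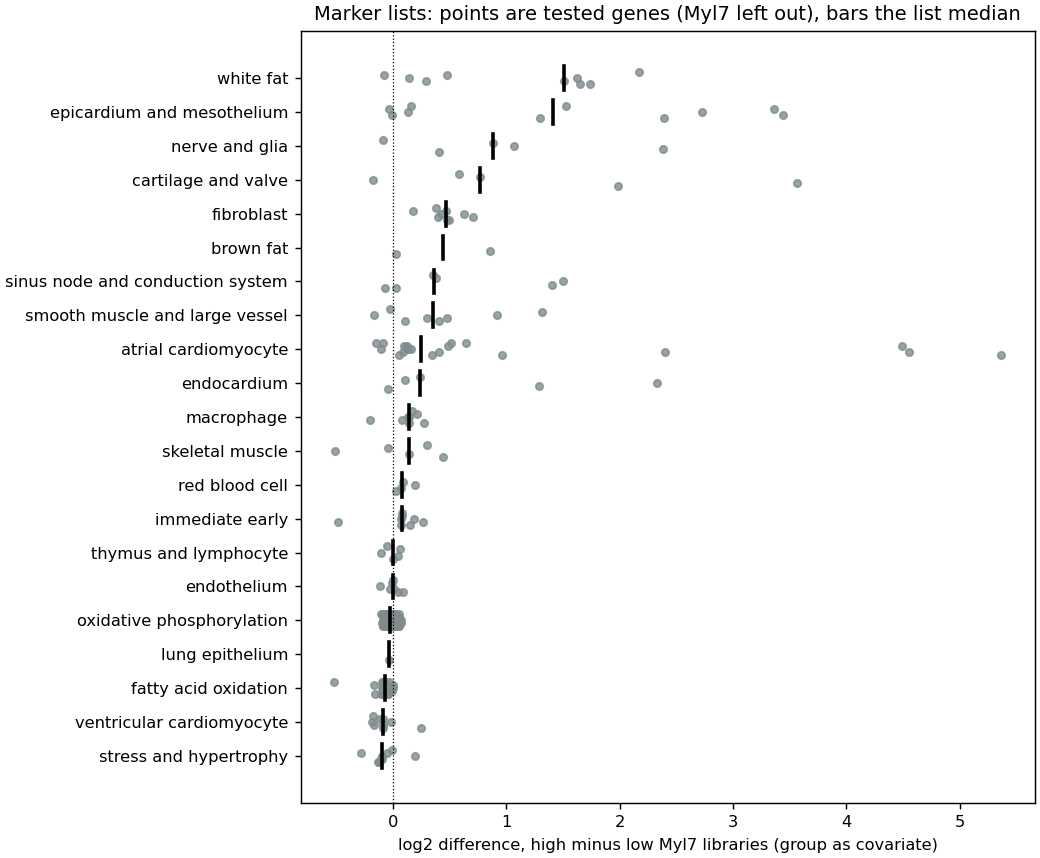
Fitted log2 difference between high and low Myl7 libraries (x axis) for each tested gene of 21 marker lists (y axis), with Myl7 left out; points are genes and black bars list medians. Sln, Myl4 and Mybphl lie beyond 4, the white fat list has the highest median (1.50), and oxidative phosphorylation genes lie close to 0.

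Several tissues had a median difference near 0. Endothelial genes had a median of -0.0012 over 7 tested, macrophage genes 0.14 over 8, thymus and lymphocyte genes 0.0013 over 5, and skeletal muscle genes 0.14 over 5. The lung surfactant genes Sftpc, Sftpb, Sftpa1 and Sftpd were at a median of 0 CPM in both classes. Red blood cell genes had a median of 0.08 over 4 and immediate early genes 0.08 over 8. Differences lay above 0 for 7 of 8 macrophage, 4 of 4 red blood cell and 7 of 8 immediate early genes. They did so for 3 of 7 endothelial, 3 of 5 thymus and lymphocyte and 3 of 5 skeletal muscle genes. None of these genes was called by class or level.

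Ventricular myocyte genes had differences slightly below 0. Of 9 tested, 1 was above 0, the transcription factor gene Hey2 (0.24 ± 0.16), and the median was -0.09. Myl2 had a difference of -0.09 ± 0.11 and Myl3 one of -0.09 ± 0.09. The stress and hypertrophy list had a median of -0.10 over 9 tested, with 1 above 0. Of the metabolic lists, oxidative phosphorylation had a median of -0.03 over 72 tested, 23 of them above 0, and fatty acid oxidation -0.07 over 25, with 2 above 0. No gene of these 4 lists was called by class or by level. Summed oxidative phosphorylation levels ran from 36231 to 54814 CPM in high libraries and from 38882 to 51171 CPM in low ones, and the ranges overlapped.

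**Figure D3:**
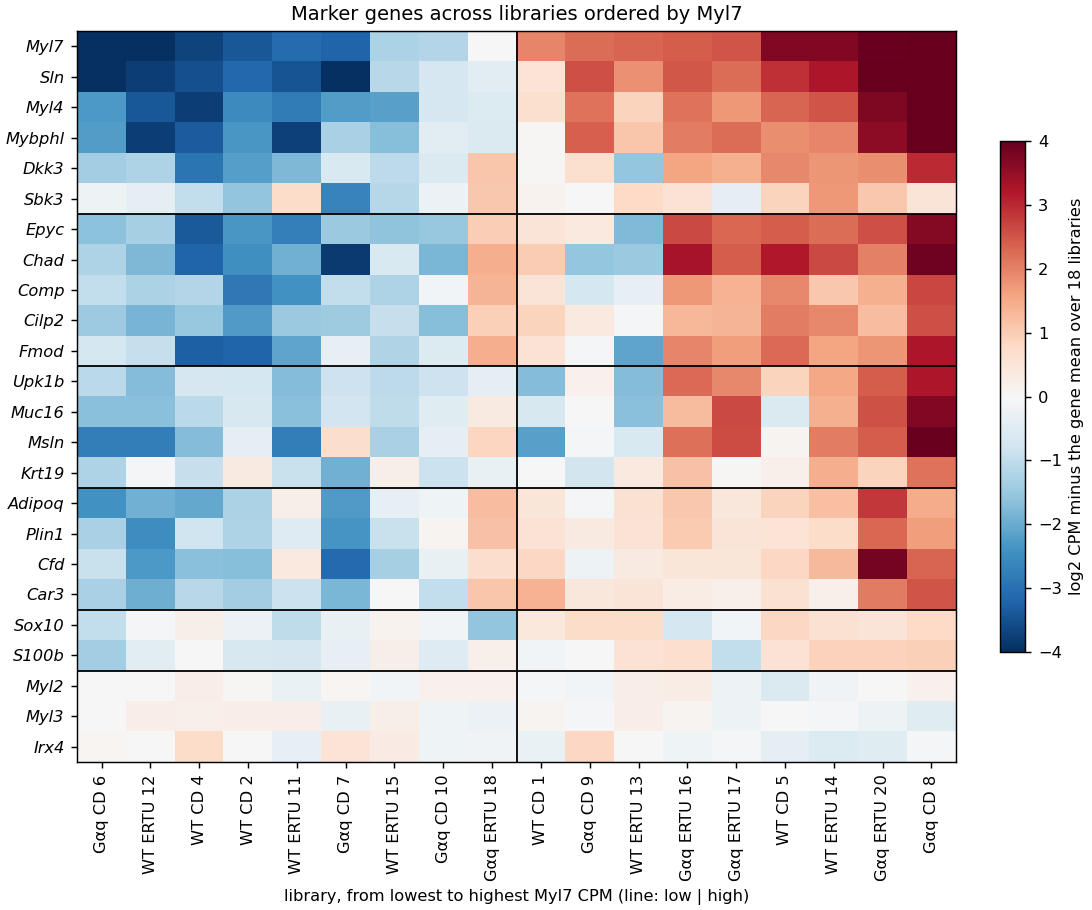
Log2 CPM of 24 genes minus each gene's mean over 18 libraries, with libraries ordered from lowest to highest Myl7 and a vertical line between low and high. Rows are grouped as atrial, cartilage and matrix, mesothelial, fat, glial and ventricular genes. Sln, Myl4 and Mybphl are higher in every high than in every low library, but they rise by grades across the line. Before the mean is taken off, Sln is 1.76 in Gαq ERTU 18, 2.72 in WT CD 1 and 4.74 in Gαq CD 9. The neighbouring-tissue genes overlap across the line, and Myl2 and Myl3 show no step.

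Single libraries combined these markers differently. Gαq CD 8, with the most Myl7, also had the highest Chad (24.0 CPM), Comp (100.5 CPM), Msln (12.2 CPM) and Dkk3 (213 CPM) of all 18 libraries. Gαq ERTU 20, with the next highest Myl7, had the highest Adipoq (14.2 CPM) and Cfd (57.1 CPM). WT ERTU 13 and Gαq CD 9 had 29.9 and 28.6 CPM of Myl7 but under 0.5 CPM of Chad. In reverse, Gαq ERTU 18 had the highest Dkk3 (57.3 CPM), Chad (4.22 CPM), Comp (39.1 CPM) and Adipoq (4.45 CPM) among low libraries. As the only low library of Gαq ERTU, it left differences of 0.50 for Dkk3, 1.13 for Chad, 0.16 for Comp and 0.23 for Adipoq in that group, against 1.47 to 3.56, 2.01 to 4.95, 1.68 to 3.23 and 1.57 to 2.35 in the other groups.

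Among the high libraries, the ratio of each atrial gene's CPM to that of Myl7 was set out for the 5 Gαq and the 4 WT libraries. Myl7 chose these libraries and the ratios were looked at after the values were seen, so they are a description with no test. The Sln to Myl7 ratio was 0.281, 0.441, 0.532 and 0.541 in WT CD 1, WT CD 5, WT ERTU 13 and WT ERTU 14. It was 1.03, 0.951, 0.785, 0.632 and 1.03 in Gαq CD 8, Gαq CD 9, Gαq ERTU 16, Gαq ERTU 17 and Gαq ERTU 20. Each Gαq library lay above each WT library.

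The mean Sln to Myl7 ratio was 0.885 ± 0.173 (SD, n = 5) in Gαq and 0.449 ± 0.121 (SD, n = 4) in WT, 2.00-fold apart as geometric means. The Myl4 to Myl7 ratio ran from 2.18 to 3.51 in Gαq and from 1.36 to 1.602 in WT. Its mean was 3.00 ± 0.496 (SD, n = 5) against 1.47 ± 0.104 (SD, n = 4), 2.02-fold apart. The Mybphl to Myl7 ratio ran from 0.289 to 0.419 in Gαq and from 0.0977 to 0.158 in WT. Its mean was 0.325 ± 0.0539 (SD, n = 5) against 0.117 ± 0.028 (SD, n = 4), 2.80-fold apart. For both genes, too, each Gαq library lay above each WT library.

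By diet, with both genotypes pooled, the ratios overlapped. Pooling adds the gap between genotypes to the spread of each diet. Within WT both ERTU ratios lay above both CD ratios for Sln (0.532 and 0.541 against 0.281 and 0.441). They did so for Mybphl (0.158 and 0.110 against 0.0977 and 0.103) but not for Myl4. Within Gαq the CD ratios were at or above the ERTU ratios for Mybphl and overlapped them for Sln and Myl4. The diets were not tested within a genotype. In 5 ERTU and 4 CD high libraries the means were 0.704 ± 0.209 and 0.675 ± 0.369 (SD) for Sln, 2.28 ± 0.835 and 2.37 ± 1.07 for Myl4, and 0.232 ± 0.0917 and 0.233 ± 0.159 for Mybphl. With the mean of the low libraries of the same genotype subtracted from each gene, the genotype folds were 2.00, 1.96 and 2.73. The fold by genotype of a ratio cannot be assigned to its numerator or to Myl7.

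**Figure D4:**
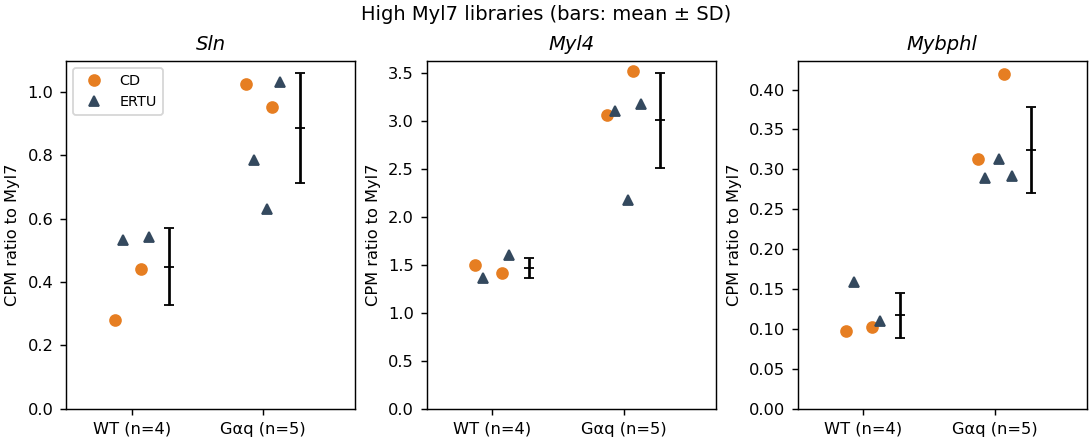
Ratio of the CPM of Sln, Myl4 and Mybphl to that of Myl7 in the 9 high libraries, by genotype, with circles for CD, triangles for ERTU and bars for the mean ± SD. In each panel the 5 Gαq points lie above the 4 WT points. Circles and triangles intermix within both genotypes for Myl4. In WT the triangles lie above the circles for Sln and Mybphl. In Gαq they intermix for Sln, and the circles lie at or above the triangles for Mybphl.

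Across all libraries, the Gαq and WT groups were also compared with log2 Myl7 as a covariate (edgeR's quasi-likelihood test, adjusted over all genes). The covariate is the Myl7 value that chose the libraries, and the genes below were named because they went with it. The adjusted p values therefore only describe these fits. A difference at equal Myl7 cannot be assigned to the gene or to Myl7. On CD, Mybphl was higher in Gαq by 1.85 ± 0.28 (SE, adjusted p = 0.00028), Sln by 1.22 ± 0.31 (adjusted p = 0.0149) and Myl4 by 1.22 ± 0.36 (adjusted p = 0.0366). On ERTU, Mybphl was higher by 1.10 ± 0.25 (adjusted p = 0.0103), while Myl4 (0.74 ± 0.35, adjusted p = 0.264) and Sln (0.37 ± 0.27, adjusted p = 0.525) did not pass. Without the covariate the differences on CD were 2.13 ± 1.26 for Mybphl, 1.74 ± 1.50 for Sln and 1.54 ± 1.37 for Myl4, and none passed (adjusted p from 0.365 to 0.588). A test of whether the difference between high and low libraries depends on genotype called 0 of 16270 genes with edgeR, with 926 of 16270 at an unadjusted p under 0.05. Myl7 made these classes, so both counts are only a description.

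The study's own comparisons were then fitted with the Myl7 level in the model or with the high libraries left out. Groups here come from the labels, and the fit with all libraries and no covariate does not use the rule. The other fits do, since Myl7 is in the model or decides which libraries are left out. Their counts are a description. Gαq on CD (Gαq CD against WT CD) called 1318 of 16270 genes (8.10%) with all libraries, 1428 (8.78%) with the class as covariate and 1526 (9.38%) with log2 Myl7 as covariate. Of the 1318 genes, 1314 were among the 1526. Gαq on ERTU called 1330 genes (8.17%) with all libraries, 1100 (6.76%) with the class and 1038 (6.38%) with log2 Myl7, which held 986 of the 1330. The common biological coefficient of variation was 0.180 with all libraries and no covariate, 0.174 with the class and 0.168 with log2 Myl7.

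Leaving out the 9 high libraries kept 3 libraries each of Gαq CD and WT ERTU, 2 of WT CD and 1 of Gαq ERTU. The fits then called 315 genes (1.94%) for Gαq on CD, 272 of them among the 1318, and 125 (0.768%) for Gαq on ERTU, 97 of them among the 1330. Of the 20 tested atrial genes other than Myl7, 4 were called for Gαq on CD with all libraries (Nppa, Pam and Chrm2 higher and Kcnj3 lower) and 3 for Gαq on ERTU (Nppa and Pam higher and Kcnj3 lower). With log2 Myl7 as covariate the counts were 8, with Mybphl, Myl4 and Sln added as higher and Kcna5 as lower, and 4, with Mybphl added. Nppa was higher in Gαq in each of these fits, by 5.07 to 5.11 on CD and by 4.95 to 5.12 on ERTU. In the fit without high libraries, a set that Myl7 chose, Dkk3 was higher in Gαq by 1.75 ± 0.33 on CD and by 2.45 ± 0.33 on ERTU. With all libraries its differences were 0.79 ± 0.94 and 1.52 ± 0.93. The value on ERTU rests on 1 Gαq library, which is assumed to vary like the other groups.

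The drug comparisons called few genes. ERTU in Gαq called 1 gene (0.00615%) with all libraries, the signalling adaptor gene Themis2 (-0.77 ± 0.12, adjusted p = 0.0459). It had a difference of -0.78 ± 0.13 with the class as covariate (adjusted p = 0.103) and of -0.79 ± 0.13 with log2 Myl7 as covariate (adjusted p = 0.0943), and 0 genes (0.00%) were then called, with 1219 and 1412 at an unadjusted p under 0.05. Without high libraries 0 genes were called, with 384 at an unadjusted p under 0.05. ERTU in WT called 0 genes with edgeR in each of the 4 fits, with 365 to 558 at an unadjusted p under 0.05, and 0 with DESeq2 and with limma voom.

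**Figure D5:**
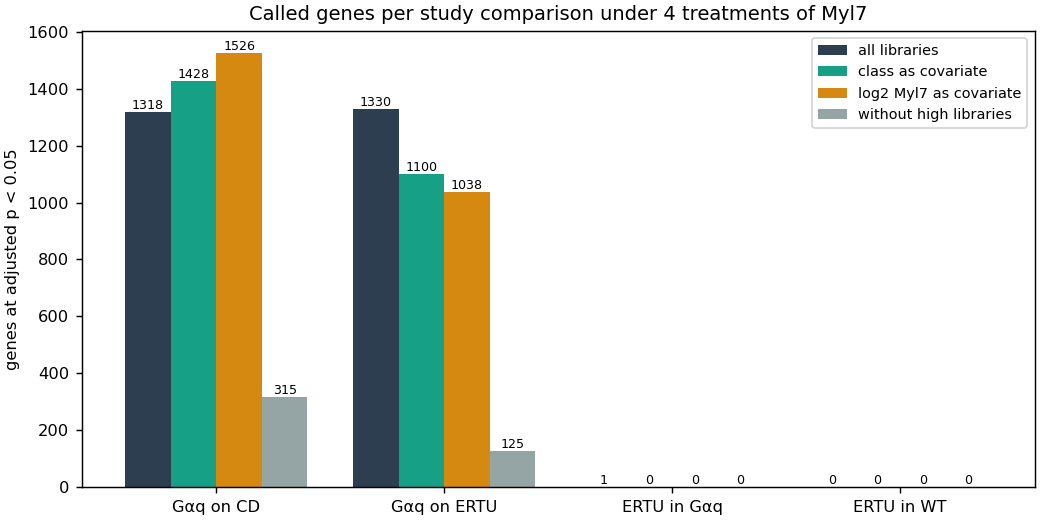
Number of genes at an adjusted p under 0.05 (y axis, from 0) in 4 comparisons of the study, with bars for all libraries, the Myl7 class as covariate, log2 Myl7 as covariate and without high libraries. The genotype comparisons have 1038 to 1526 genes with all libraries or either covariate and drop to 315 and 125 without the high libraries, and the drug comparisons have 0 or 1.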

How the data were processed

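The deposited counts are read pairs for each Ensembl gene. To make them, the authors aligned poly(A)-selected libraries to mm10 with STAR (2.6.0c) and counted nuclear-encoded genes with featureCounts of Subread (1.6.2), per the labels' processing notes and the methods. A second deposited table of log2-like values from the authors' DESeq2 (1.23.10) transformation was not used. Gene symbols matched 55104 of 55450 IDs (99.4%). CPM is the count over the library total. Counts were fitted in R 4.3.3 with edgeR 4.0.16 (filterByExpr on the 4 groups, 16270 genes, TMM factors from 0.925 to 1.07, quasi-likelihood F test) with group as covariate and the Myl7 class or log2 Myl7 CPM (prior count 2) as a term. Adjusted p is by Benjamini-Hochberg over all genes, with a threshold of 0.05. The SE of a log2 difference is its size over the square root of F. Counts of genes leave Myl7 out of the class and level fits. Positions are from GENCODE M21, and lengths are of the APPRIS principal transcript. Correlations used log2(CPM + 0.1) (Python 3.11.15, scipy 1.17.1).

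Named genes are the measured atrial list, the called genes with the largest differences and, of each other list, up to 4 members with the smallest p by class. Other genes named were chosen after their values were seen. The libraries, the 21 lists (271 genes) and the comparisons were chosen with earlier results of these data known. Each library is 1 mouse, and no library was left out of the main comparison. Some genes are not reported here. No sequencing batch was given in the sources used here. A count of 0 allows up to 3 counts, which covers counting error only. The steps were tested on simulated data. Alternatives were limma 3.58.1 voom with quality weights, DESeq2 1.42.0 (its Wald test, and its size factors in edgeR), all genes with a count, a filter on the 2 classes, no group covariate, Myl7 as a continuous term or covariate, no high libraries, and leaving out each library. Added after seeing the data were the class as covariate and ratios less the mean of the low libraries.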

Additional observations from a re-analysis of the deposited data

Results flagged for a closer look

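Each value below is the gap from 1 library to the nearest of its group, divided by the range of the group, and lies above the 95% critical value for groups of 4 or 5. Such gaps were found for 30 values in 156 groups of values (39 measures in 4 groups). For normally distributed values chance flags about 1 in 20 groups. The CPM used here were not log-transformed and many were skewed, so that rate need not hold for them. The measures include Myl7, which chose the libraries, and genes named because they went with it, so the number is only a description.

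Gαq CD 8 was the high one for Myl7 (0.802), Sln (0.817), Myl4 (0.78), Mybphl (0.74), Ppp1r1b (0.783), Epyc (0.92), Cilp2 (0.826), Dkk3 (0.846), Chad (0.978), Comp (0.926), Msln (0.903) and Upk3b (0.93). It was also the high one for the summed levels of the epicardium and mesothelium list (0.753), the smooth muscle and large vessel list (0.804, 964 CPM against at most 546 CPM in the other Gαq CD libraries) and the cartilage and valve list (0.913).

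WT ERTU 14 was the high one for Epyc (0.95), Sphkap (0.875), Cilp2 (0.816), Dkk3 (0.939), Chad (0.938), Msln (0.876), Upk3b (0.808), the cartilage and valve list (0.752) and the macrophage list (0.88). WT CD 5 was the high one for Sln (0.831) and Sphkap (0.867). Gαq ERTU 16 was the high one for the summed atrial list (0.856, 22929 CPM against at most 17410 CPM), most of which was Nppa. These libraries are all of the high class.

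Among low libraries, Gαq ERTU 18 was the low one for Cilp2 (0.88), and WT ERTU 15 was the low one for the immediate early list (0.793) and the fatty acid oxidation list (0.727, 17249 CPM against at least 20633 CPM).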

How the results depend on the processing

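The 10 calls by Myl7 class became 398 with no filter on low counts, 56 with the DESeq2 Wald test, 5 with limma voom with quality weights and 208 with log2 Myl7 as a continuous term, and ran from 4 to 31 over the 18 fits that left out 1 library. With no library between 10 and 20 CPM, counting such libraries as low or as high gave the same classes. Of 23 genes followed by class, none changed direction in any alternative run. These genes were named from these data for their higher levels in high libraries. Each run kept the Myl7 classes or level, so the kept direction supports nothing further. In the 158 values from alternatives other than leaving out a library, 118 stayed on their side of the threshold, 6 lost and 34 gained a call. In 414 values with 1 library left out, 360 stayed, 40 lost and 14 gained a call.

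Gαq on CD called 1318 genes and 315 without the high libraries, with 798 (without WT CD 1, and 855 without WT CD 2) to 1415 over the leave-one-out fits. Gαq on ERTU called 1330 genes, 125 without the high libraries and 2755 with limma voom, with 946 to 1696 over the leave-one-out fits. ERTU in Gαq called 1 gene, 5 with DESeq2, and 0 with no filter, with the class or log2 Myl7 as covariate, without the high libraries and over the leave-one-out fits (0 to 0). ERTU in WT called 0 genes in every alternative run (0 to 0 over the leave-one-out fits). Fits without the high libraries hold 9 of 18 libraries. No other cause of these changes was tested. No paired analysis was possible because the numbers in the count table run across the series and no 2 groups share one, so the planned fits with a replicate block were not run.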
